A study of Mus musculus with 103 samples.

Results

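Livers of old and young mice kept on a calorie-restricted diet were compared at 6 times of day. The comparison holds 56 arrays, all those of the series whose titles name a calorie-restricted diet, and leaves aside its other 47: 24 arrays of old mice (by label 12 female, 12 male) and 32 of young mice (by label 18 female, 14 male), 1 array per sample. The C57BL6/J mice had been restricted for 25 weeks under 12 h of light and 12 h of darkness a day, and livers were collected every 4 h, with lights on at zeitgeber time (ZT, in hours) 0 and the last collection at ZT20. Old mice were 83 to 97 weeks of age and young mice 47 to 56 weeks, except that 1 array titled young (ZT16, replicate 5) carried an age label of 88 weeks and was kept with the young group of its title. There were 3 to 6 arrays for each age and time. The other 47 arrays (22 old mice of 84 to 93 weeks and 25 young mice of 48 to 57 weeks, of the same strain, on a normal diet for 25 weeks) served to estimate the spread and to set the age difference on that diet beside the one under restriction. Among the latter, young replicate 4 at ZT4 carried an age label of 23 weeks, less than its time on the diet, and was kept with the group of its title; without it 888 genes were called under restriction and 577 on the normal diet. The labels do not give the degree or the hour of restricted feeding, and they number no animals. All replicates differed from each other in labelled age or sex in 8 of the 12 restricted groups, and in the other groups 9 arrays shared both with another replicate, so that most replicates were different mice by label.

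Calorie restriction lowers energy intake without malnutrition and extends lifespan in many mouse strains. In the liver it shifts metabolism between fat synthesis after the meal and fat oxidation during the long fast, and mice fed once daily align many liver rhythms with the meal. Ageing of the liver is known for leucocyte infiltration, a raised inflammatory tone and changes in lipid and drug metabolism. Which of these differences are present between old and young livers when both are under restriction is the question that the comparison addresses.

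The tissue label was checked against transcripts. The hepatocyte genes Alb, Apoa1, Ttr, Serpina1a, Tat and Hnf4a had means between the 94.7th and the 100th percentile of all genes, with albumin at 12.3 to 12.6 on every restricted array. The labelled sexes did not separate, and labelled females carried high levels of Y-linked transcripts. Xist, which silences an X chromosome in females, ranged from 2.97 to 5.78 in labelled females and from 3.59 to 5.14 in labelled males, and the Y-linked Eif2s3y from 8.61 to 9.86 and from 8.67 to 10. The Y-linked Kdm5d ran from 6.49 to 7.48 in labelled females and from 6.5 to 7.16 in labelled males. The median of Xist was 4.28 in labelled females and 4.32 in labelled males, close to 4.131, the lowest mean of any gene tested. Whether the sex labels are wrong or the values were adjusted before deposit was not tested. Labelled sex was kept as a term of the model, but no value below rests on it as a known sex. The median of an array lay between 5.06 and 5.17. The array with the age label of 88 weeks had 41.9% of the called genes nearer to the mean of the old arrays at its time, against a median of 32.9% for the young arrays and a highest share of 71.6% in another young array of ZT16.

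A single library stood apart in immune transcripts. Replicate 2 of the old mice at ZT4 was the highest of the 56 arrays in the mean level of resident macrophage markers (8.99, where the next array read 8.05), of neutrophil markers (7.04, next 6.04) and of recruited myeloid cell markers (5.92, next 5.77), and was 1 of only 3 old arrays at that time. Results on those cells are given with and without it. Without it 634 genes were called for age.

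All values are RMA log2 intensities of Affymetrix probe sets, so that a difference of 1 is a doubling. The age difference is the old minus young difference within each time, averaged over the 6 times, from a limma fit. It is called when its Benjamini-Hochberg adjusted p over the 11787 genes tested is under 0.05, and "rose" and "fell" are used of called differences only. Of all genes tested, 911 (7.73%) were called, 346 higher in old livers (2.94%) and 565 lower (4.79%), and 2948 had an unadjusted p under 0.05. With each array centred on its median, the split was 280 higher and 863 lower, and after quantile normalization 390 and 472. The differences were small: the median size among called genes was 0.17 (1.12-fold), 143 exceeded 1.2-fold, 12 exceeded 1.5-fold and 0 exceeded 2-fold. The median over all genes was -0.00825. Of the called genes, 496 (54.4%) had 1 sign at 6 of 6 times and a further 353 at 5 of 6, against 9.83% of all genes at 6 of 6. The calls were made on the mean of these same 6 differences, so the higher share follows in part from the choice and is no separate support. The count of called genes depended on single arrays. It was 546 without replicate 3 of the old mice at ZT4 and 570 without replicate 3 of the old mice at ZT0. With all arrays numbered replicate 3 left out it was 43. That fit dropped 12 restricted arrays and also the normal-diet arrays of that number, which help to estimate the spread. Nearly all restricted arrays numbered replicate 3 were labelled female, and nearly all numbered 1 or 2 were labelled male. Leaving out a replicate number thus also shifts the balance of labelled sex.

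Noct encodes nocturnin, an NADP(H) phosphatase whose transcript is strongly rhythmic in mouse liver and responds to feeding. It lies on chromosome 3 (GRCm38.p6 3:51224447-51251654, plus strand) and was measured by 1 probe set. At ZT0 the 4 old arrays read between 8.901 and 9.6 with a median of 9.29, and the 5 young arrays between 6.597 and 7.334 with a median of 6.665. Every old array stood above every young array at that time. At ZT4 the 3 old arrays read 9.419, 9.654 and 10.37 and the 6 young arrays from 7.839 to 9.096 with a median of 8.564, again with no overlap. From ZT8 on the groups came close: at ZT8 the old arrays spanned 9.949 to 10.37 and the young 9.668 to 10.7. At ZT12 the spans were 9.839 to 10.34 (old) and 9.524 to 10.03 (young). At ZT16 they were 9.766 to 10.22 and 9.448 to 9.759, without overlap, and at ZT20 they were 9.485 to 10.12 and 9.013 to 9.915.

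In young restricted livers Noct thus had a deep low at ZT0 and in old restricted livers a shallow one. Its time means ran from 6.901 at ZT0 to 9.988 at ZT8 in the young, a swing of 3.09 on the log2 scale, and from 9.27 at ZT0 to 10.25 at ZT8 in the old, a swing of 0.976. The old minus young difference was 2.37 (SE 0.258, 5.19-fold) at ZT0 and 1.28 (SE 0.272, 2.43-fold) at ZT4. At the other times it lay between 0.263 and 0.393, with SEs of 0.233 to 0.258. Averaged over times, Noct rose by 0.83 (SE 0.105; adjusted p = 9.74e-08, limma). The test that the age difference is the same at all times (limma F test with 5 degrees of freedom) called Noct and no other gene: 1 of 11787 (0.00848%), with an adjusted p of 0.000564. Next in order, and not past the threshold, were Ogdh, Tcf4 and Csad (each adjusted p = 0.0598). The call of Noct held in the 56 fits that each left out 1 restricted array (adjusted p from 0.000312 to 0.0135). It was lost in females alone (adjusted p = 0.127), in males alone (0.683) and without the arrays numbered replicate 2 (0.0997). Fitted with cosine and sine terms of a 24 h period instead of time means, 0 genes differed between ages after adjustment and 544 had an unadjusted p under 0.05, against 1394 with time means.

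On the normal diet the same gene was also higher in old livers, by 0.71 on average (adjusted p = 4.97e-05), and the excess at ZT0 was 1.27 (SE 0.272), at ZT4 1.09 (SE 0.259) and at ZT8 0.762 (SE 0.294). The young low at ZT0 was 8.093 on the normal diet and 6.901 under restriction, while the old low was 9.363 and 9.27. The difference between the diets in this time pattern was not tested. The diet interaction of the time-averaged difference was 0.12 (SE 0.154; adjusted p = 0.833).

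**Figure D1:**
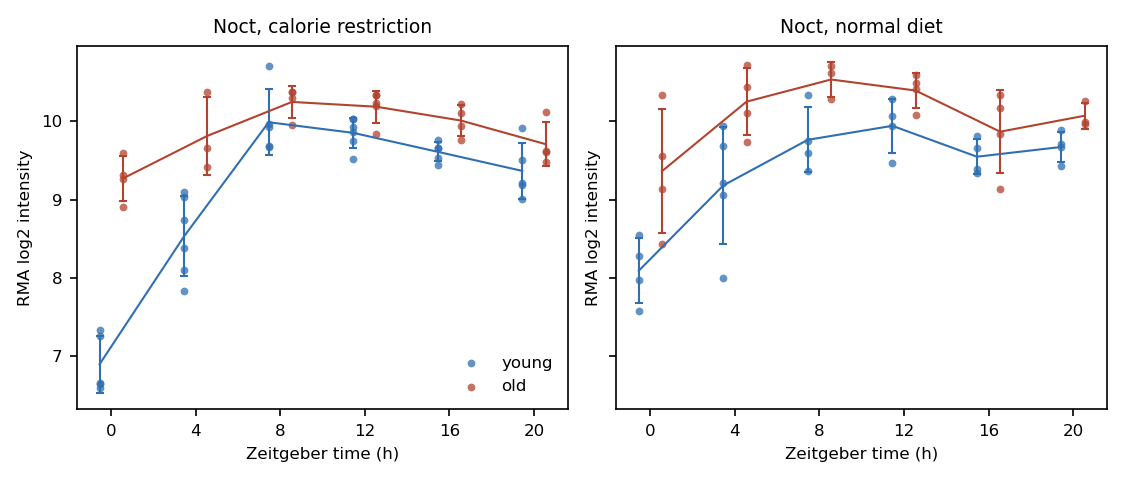
RMA log2 intensity of Noct by zeitgeber time under calorie restriction (left) and on the normal diet (right). Points are arrays, lines join the means of old (red) and young (blue) mice and bars are SDs, and the young restricted arrays of ZT0, at 6.597 to 7.334, lie below all others in the left panel.

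Because Noct was the only gene called by the test of the age difference between times, the promoter window that RefSeq lists for it is shown: 250 bases before to 50 after the start of the gene, GRCm38.p6 chr3:51224197-51224496, plus strand, 5′ to 3′, all in lower case because none of the motifs searched is in it.

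Noct: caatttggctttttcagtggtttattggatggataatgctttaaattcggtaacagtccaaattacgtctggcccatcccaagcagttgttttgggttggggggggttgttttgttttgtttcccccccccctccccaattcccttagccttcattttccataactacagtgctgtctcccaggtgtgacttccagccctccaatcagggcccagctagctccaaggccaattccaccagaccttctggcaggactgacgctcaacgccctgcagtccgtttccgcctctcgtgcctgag

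The motifs searched on both strands were the E-box CACGTG bound by CLOCK and BMAL1, the cAMP response element TGACGTCA, the D-box TTATGTAA bound by the PAR bZIP factors and NFIL3, and the octamer ATTTGCAT of immunoglobulin promoters. None of these motifs contains another. The E-box is in 7.15% of the 32851 promoter windows of this length, the cAMP response element in 1.79%, the D-box in 0.938% and the octamer in 1.74%. A set of 24 genes was named for large and steady differences: the 12 called genes in each direction with the largest difference among those with 1 sign at 5 or more of the 6 times, predicted and sex-chromosome genes left out. Of these, 17 had a window. Among the 17, Gpx6 held an E-box 121 bases before the listed start and Keg1 an octamer 189 bases before it. Among the called genes with a window, 28 of 269 that rose (10.4%) and 69 of 449 that fell (15.4%) held an E-box, beside 11.4% of the tested genes with a window. These are counts of letters and not of bound sites.

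No core clock gene was called. Of 17 clock genes tested, Noct alone passed, and the other 16 differed by -0.13 to 0.15 with adjusted p of 0.301 or more. The repressors Per2 (-0.05, SE 0.108) and Per3 (-0.13, SE 0.114), the period gene Per1 (0.07, SE 0.0815), the activators Arntl (0.09, SE 0.0612) and Clock (0.01, SE 0.0571) and the repressor Cry1 (-0.03, SE 0.0917) are examples. Such averages can hide opposite differences at single times. Clock read -0.368 (SE 0.141) at ZT8 and 0.437 (SE 0.128) at ZT12, and Cry1 -0.476 (SE 0.226) at ZT0 and 0.422 (SE 0.226) at ZT8. Neither passed the limma F test between times (adjusted p = 0.183 and 0.54). Per2 swung by 4.44 between its lowest and highest time mean in the young and by 4.61 in the old, with the low at ZT0 and the high at ZT12 at both ages. Usp2, a clock-controlled deubiquitinase, swung by 4.52 and 4.76, and Nr1d2, which encodes the nuclear receptor REV-ERB beta, by 3.73 and 3.95. The median swing of the 17 genes was 2.66 in young and 2.62 in old livers. The swing was smaller in old livers for 6 of them, Noct included, and larger for the rest. Of the 17, 12 had their highest mean at the same sampled time at both ages. The rest had it 4 h earlier in old livers, with ZT20 counted as before ZT0. Arntl had it at ZT20 in old and ZT0 in young livers, and Per1, Cry2, Hlf and Usp2 at ZT8 and ZT12. These counts describe the means and were not tested.

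Immune-cell transcripts were among the largest rises. Jchain, the joining chain of dimeric IgA and pentameric IgM that plasma cells make, ran from 4.449 to 7.79 in old arrays with a median of 5.527, and from 3.525 to 6.924 in young arrays with a median of 4.7. The ages overlapped at every time but ZT16. Jchain rose by 0.89 (SE 0.213; adjusted p = 0.00794), higher at 6 of 6 times. The immunoglobulin lambda variable gene Iglv1 had an old range of 4.795 to 7.818 (median 5.763) and a young range of 4.572 to 5.708 (median 5.121). At ZT0 and ZT4 every old array exceeded every young one, and Iglv1 rose by 0.80 (SE 0.146; adjusted p = 0.000521). The kappa variable gene Igk-V21 rose by 0.60 (SE 0.162; adjusted p = 0.0161) and its second probe set differed by 0.459 (SE 0.148). Its restricted mean was 3.73 in young and 4.327 in old livers, where the lowest mean of any gene tested was 4.131. It was thus near the floor in the young, and its rise is uncertain. Immunoglobulin probe sets can also share sequence with other variable genes, so the member measured is uncertain. The B-cell receptor signalling chain Cd79b rose by 0.21 (SE 0.0427; adjusted p = 0.00245). In all, 3 of 6 tested B and plasma cell markers rose and 0 fell, with a median of 0.15. Their mean level ran from 5.22 to 6.34 in old and from 4.92 to 5.69 in young arrays. Each of the 56 fits that left out 1 array called 3 of the 6. In bulk liver, more cells of a type and more RNA per cell cannot be told apart.

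Among markers of recruited myeloid cells, 5 of 8 rose and 0 fell, with a median of 0.29. They were Ms4a6d (0.52, SE 0.167), the beta-glucan receptor Clec7a (0.45, SE 0.148), the lipid-associated macrophage genes Gpnmb (0.28, SE 0.0731) and Trem2 (0.23, SE 0.0721) and the fractalkine receptor Cx3cr1 (0.17, SE 0.056). The mean level of the 8 genes ranged from 4.81 to 5.92 in old arrays and from 4.43 to 5.37 in young arrays. Without replicate 2 of the old mice at ZT4, 1 of 8 was called, Gpnmb (0.27, SE 0.0756; adjusted p = 0.0258), although the median was 0.274. It was not alone in this: the count was 1 also without old replicate 3 or 4 at ZT0, old replicate 3 at ZT16 or ZT20, or young replicate 5 at ZT20, and was 3 or fewer without any 1 of 31 of the 56 arrays. Ms4a6d then read 0.423 (adjusted p = 0.114), Clec7a 0.403 (0.094), Trem2 0.162 (0.139) and Cx3cr1 0.165 (0.0743). Resident macrophage markers, whose mean ran from 6.28 to 8.99 in old and from 6.21 to 8.05 in young arrays, gave 0 calls of 11 tested, with 9 upward and a median of 0.19, or 0.083 without that array. Clec4f, a Kupffer cell lectin, read 0.01 (SE 0.123) and Vsig4, a complement receptor, 0.15 (SE 0.145).

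The neutrophil alarmin S100a9 rose by 0.57 (SE 0.151; adjusted p = 0.0145) at 6 of 6 times, 1 call among 5 neutrophil markers, all of them upward, where the mean of the list ran from 4.67 to 7.04 in old and from 4.37 to 5.48 in young arrays. Without replicate 2 of the old mice at ZT4 it read 0.435 and missed the threshold (adjusted p = 0.0561). Serpinb1a, an inhibitor of neutrophil proteases, rose by 0.64 (SE 0.164) and the platelet chemokine Pf4 by 0.58 (SE 0.187), the latter with 38 calls in the 56 fits that left out 1 array and 0.423 (adjusted p = 0.144) without that array. The complement C5a receptor C5ar1 rose by 0.45 (SE 0.144; adjusted p = 0.0391), and read 0.372 without it (adjusted p = 0.106). T and NK cell markers gave 0 calls of 11 tested, with a median of 0.13, and dendritic cell and cholangiocyte markers 0 of 3 and 0 of 5. Of 10 sinusoidal endothelial markers Oit3 fell (-0.18, SE 0.0492), and of 11 stellate cell and fibroblast markers the matrix proteoglycan Dcn rose (0.13, SE 0.032). The 6 hepatocyte markers gave 0 calls, with a median of 0.00635.

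Lcn2, a siderophore-binding acute phase protein made by hepatocytes and neutrophils, had the largest rise of all genes named. Old arrays ran from 6.729 to 12.36 (median 8.893) and young arrays from 6.171 to 10.04 (median 8.123). At ZT16 the 4 old arrays read 9.752, 10.53, 10.65 and 10.74 and the 5 young arrays 8.17, 8.698, 9.066, 9.298 and 9.325, the only time without overlap. At ZT0 the difference was 0.0585 (SE 0.565), within the error. The mean rise was 0.91 (SE 0.229; adjusted p = 0.0105), and 0.78 (adjusted p = 0.0339) without replicate 2 of the old mice at ZT4. Of 19 acute phase genes, 5 rose and 0 fell: besides Lcn2, serum amyloid P Apcs (0.31, SE 0.0905), the hepatokine Fgl1 (0.22, SE 0.0616), and the inter-alpha-trypsin inhibitor chains Itih3 (0.13, SE 0.038) and Itih4 (0.08, SE 0.0225). The serum amyloid genes Saa1 (0.28, SE 0.204) and Saa2 (0.36, SE 0.167) and haptoglobin, Hp (-0.00463, SE 0.0658), did not pass.

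Interferon-responsive genes gave 2 calls of 13, the guanylate-binding protein Gbp2 (0.48, SE 0.13) and the immunoproteasome subunit Psmb9 (0.21, SE 0.0683), and class I antigen presentation 2 of 5, H2-Q4 (0.26, SE 0.0722) and the loading factor Tapbp (0.17, SE 0.0472). The interferon count was 0 without replicate 3 of the old mice at ZT4, 4 without replicate 1 of the old mice at ZT4, and 1 without any 1 of 18 other arrays. Of 41 proteasome genes tested, 2 rose (Psmb9 and Psme1) and 1 fell (Psmb7), beside 2.94% and 4.79% of all genes tested. Their median was -0.0341. Psme1, an interferon-induced proteasome activator, read 0.12 (SE 0.033) and the constitutive subunit Psmb7 -0.11 (SE 0.0293). The count of higher proteasome genes was 1 without any 1 of 19 arrays, and that of lower ones 2 or 3 without any 1 of 13. Class II genes gave 0 calls of 9. Csprs, a component of the Sp100-rs gene repeat, rose by 0.56 (SE 0.0721; adjusted p = 1.28e-07). Old arrays ran from 6.785 to 7.859 and young arrays from 5.719 to 7.202, without overlap at ZT0 and ZT8. The predicted gene LOC664787 rose by 0.49 (SE 0.0754; adjusted p = 2.07e-05) and had the next smallest p after Noct and Csprs. A probe set of a repeated gene can read several copies.

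**Figure D2:**
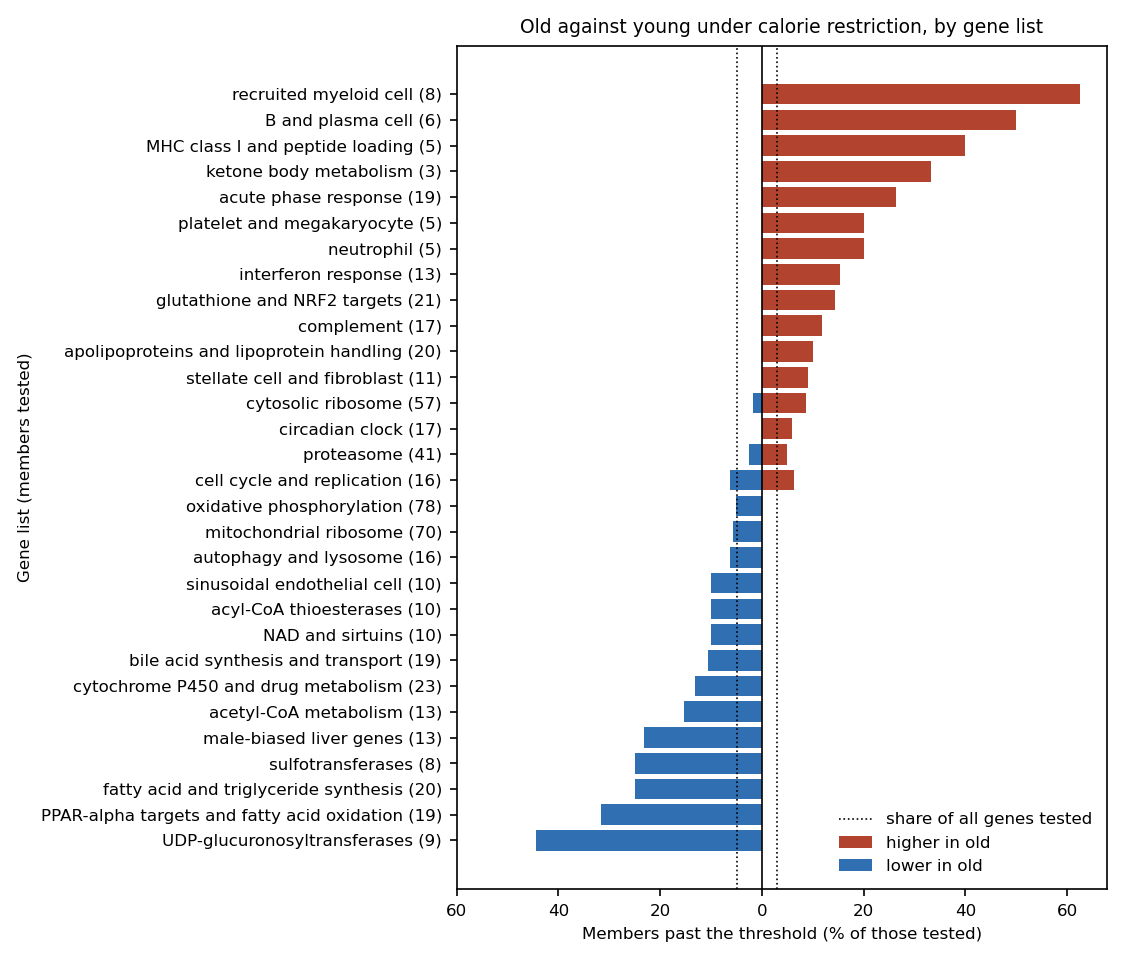
Members of each gene list that passed the threshold, as a percentage of the members tested (number in brackets), higher in old to the right and lower to the left; lists with no call are left out. Dotted lines give the 2.94% and 4.79% of all genes tested. The longest bars are 5 of 8 recruited myeloid cell markers on the right and 4 of 9 genes listed as UDP-glucuronosyltransferases on the left.

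Lpl, the lipoprotein lipase that adult hepatocytes express little, ran from 6.196 to 9.364 in old arrays (median 7.181) and from 5.078 to 8.265 in young arrays (median 6.564). At ZT12 the 5 old arrays lay between 6.361 and 6.607, all above the 6 young arrays at 5.078 to 6.045. At ZT8 the difference was -0.328 (SE 0.369) and at ZT20 0.0605 (SE 0.369), both within the error. The mean rise was 0.65 (SE 0.150; adjusted p = 0.00661), and 0.533 (adjusted p = 0.024) without replicate 2 of the old mice at ZT4, whose value of 9.364 was the highest. Apoa4, an intestinal and hepatic apolipoprotein, rose by 0.35 (SE 0.116; adjusted p = 0.0472) and held its call in 19 of the 56 fits that left out 1 array. Of 20 apolipoprotein and lipoprotein-handling genes, these 2 rose and 0 fell.

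Part of the fat synthesis genes fell. Me1, the malic enzyme that yields NADPH, had young arrays between 6.947 and 8.898 (median 7.9) and old arrays between 6.558 and 8.504 (median 7.372), apart at ZT0 and ZT4 and overlapping at the other times. At ZT4 the 3 old arrays read 6.558, 7.17 and 7.829 and the 6 young arrays 7.891 to 8.661. Me1 fell by 0.55 (SE 0.132; adjusted p = 0.00827). Of 20 genes of fatty acid and triglyceride synthesis, 5 fell and 0 rose, with a median of -0.0995. The others were the glycerol-3-phosphate acyltransferase Gpam (-0.32, SE 0.0877), the desaturase Fads2 (-0.29, SE 0.0899), the glucose-sensing transcription factor Mlxipl (-0.18, SE 0.0529) and the elongase Elovl5 (-0.10, SE 0.0333). Fatty acid synthase Fasn (-0.09, SE 0.122), Acaca (-0.12, SE 0.105) and Scd1 (0.03, SE 0.0451) did not pass. After quantile normalization 3 of the 20 were called, 2 were without replicate 3 of the old mice at ZT4, and 3 without old replicate 3 at ZT16 or young replicate 2 at ZT20.

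Part of the fat oxidation genes fell as well. Ppara, the nuclear receptor that drives the fasting programme of fat oxidation, fell by 0.31 (SE 0.072; adjusted p = 0.00677). With it fell the reductase Decr1 (-0.31, SE 0.0782), the mitochondrial carnitine genes Cpt2 (-0.21, SE 0.0692) and Slc25a20 (-0.17, SE 0.0543), the enoyl-CoA isomerase Eci1 (-0.19, SE 0.0631) and the peroxisomal Hsd17b4 (-0.17, SE 0.0481). Of 19 genes tested in this list 6 fell and 0 rose, 17 pointed downward, and the median was -0.17. After quantile normalization 3 were called, as without any 1 of 10 arrays (old replicate 3 at ZT0, 2 or 3 at ZT4, 2 or 3 at ZT16 or 1 at ZT20, young replicate 1 at ZT4, 2 at ZT8, 3 at ZT16 or 2 at ZT20). Cpt1a (-0.04, SE 0.0523) and Cyp4a10 (-0.12, SE 0.104) did not pass. Acot1, a thioesterase that splits long-chain acyl-CoA and a target of Ppara, ran from 6.74 to 9.392 in young arrays (median 8.031) and from 6.352 to 9.559 in old arrays (median 7.494), with overlap at every time. It fell by 0.50 (SE 0.16; adjusted p = 0.0388), was called in 39 of the 56 fits that left out 1 array and was not called after quantile normalization. Oxct1, which lets tissues use ketone bodies and is low in hepatocytes, rose by 0.45 (SE 0.142), and read 0.327 (adjusted p = 0.136) without replicate 2 of the old mice at ZT4; its call was lost without any 1 of 18 arrays.

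The largest decreases of the named genes were those of Slc25a30 and Ociad2. Slc25a30, a mitochondrial carrier, had young arrays between 2.993 and 7.64 (median 4.751) and old arrays between 2.901 and 5.139 (median 3.946). Its mean was 4.763 in young and 4.01 in old livers, the latter under 4.131, the lowest mean of any gene tested, so that old livers were near the floor. At ZT0 the young arrays read 3.692, 5.874, 6.32, 6.497 and 7.64 and the old arrays 3.774, 4.112, 4.378 and 4.834, so that 1 young array lay below every old one and the other 4 above them all. It fell by 0.75 (SE 0.225; adjusted p = 0.0299), and without replicate 3 of the old mice at ZT0 it missed the threshold (adjusted p = 0.0508). Ociad2, an OCIA-domain protein of mitochondria, fell by 0.74 (SE 0.122; adjusted p = 0.000105) at 6 of 6 times. Its old arrays lay between 5.526 and 7.203 (median 6.237) and its young arrays between 5.758 and 8.37 (median 6.94). At ZT0 the 4 old arrays read 6.061, 6.21, 6.466 and 6.696 and the 5 young arrays 6.804 to 7.698; at ZT4 the ages were apart too. Lrpprc, which stabilises mitochondrial messenger RNAs, fell by 0.26 (SE 0.0464; adjusted p = 0.000397). Also among the 10 smallest p-values, besides Sult5a1, fell Lrch1, a leucine-rich repeat protein (-0.33, SE 0.0579) and Pard3, a cell polarity scaffold (-0.26, SE 0.0476).

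Respiratory chain and ribosome genes differed little in size, but within each list most pointed 1 way, which was not tested. Of 78 genes of oxidative phosphorylation 4 fell and 0 rose (Cox5a, Ndufa1, Ndufc2 and the assembly factor Uqcc1, by 0.07 to 0.15), a share near that of all genes that fell. That count was 1 without replicate 3 of the old mice at ZT4 and 9 without replicate 1 or 3 of the young mice at ZT0. Of the 78 genes, 12 read above 0, and the median was -0.0617. The mitochondrial ribosome gave 4 of 70 lower (Mrpl38, Mrpl43, Mrps10 and Mrps18a, from -0.12 to -0.19), beside 4.79% of all genes tested. Of these 70, 12 read above 0, and the median was -0.0422. Of 57 cytosolic ribosomal genes 5 rose, by 0.08 to 0.10 (Rpl7, Rpl30, Rpl39, Rpl9 and Rps25), and the p53-induced paralog Rps27l fell (-0.10, SE 0.0337). Of the 57, 45 read above 0, and the median was 0.0531. After quantile normalization 12 cytosolic ribosomal genes were called higher and 0 lower. The higher count was 9 without young replicate 1 at ZT0 or young replicate 4 at ZT16 and 8 without old replicate 1 at ZT4, and the call of Rps27l was lost without any 1 of 25 arrays. Signal of ribosomal protein genes can come from processed pseudogenes, so these probe sets are uncertain.

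**Figure D3:**
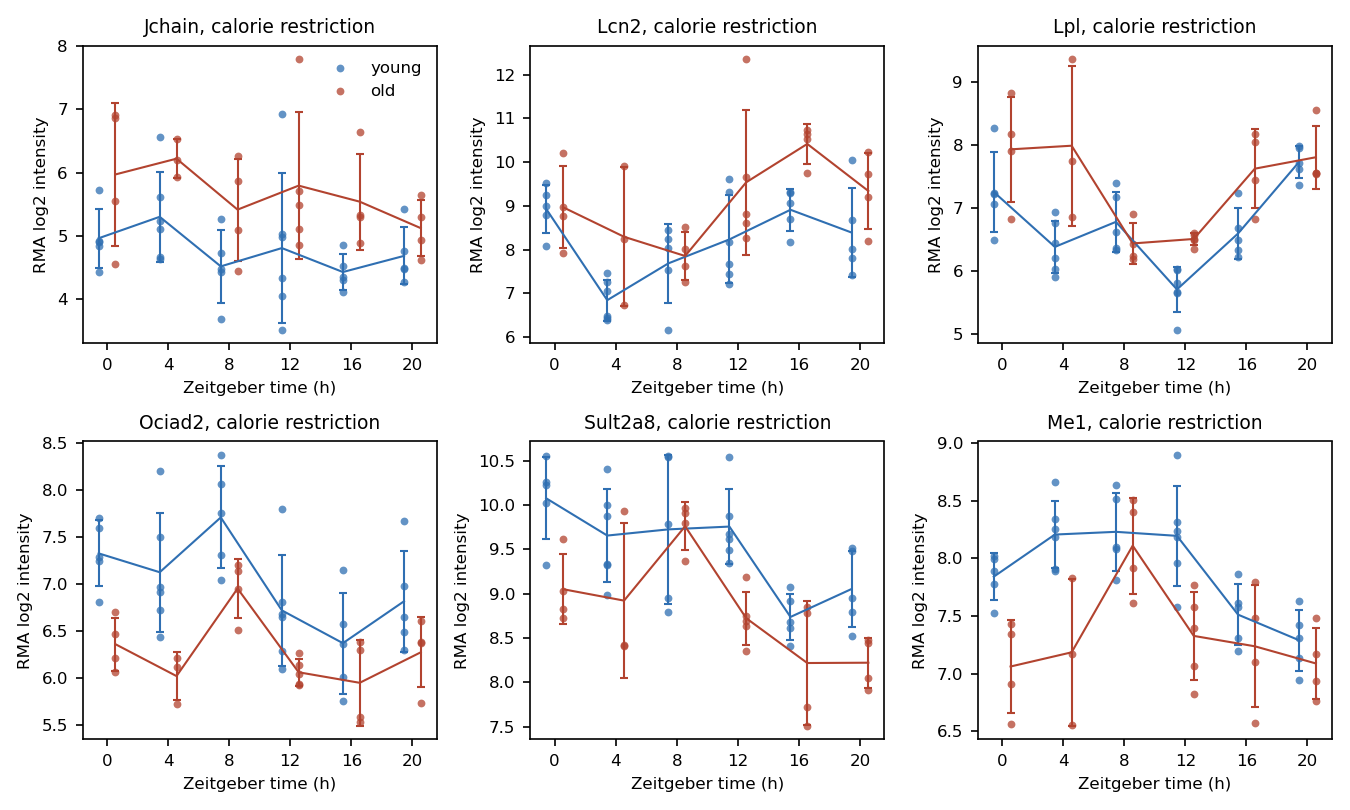
RMA log2 intensity by zeitgeber time of Jchain, Lcn2, Lpl, Ociad2, Sult2a8 and Me1 on the 56 restricted arrays; points are arrays, lines join means and bars are SDs for old (red) and young (blue) mice. Lcn2 at ZT16 and Lpl at ZT12 separate the ages with old above, Ociad2 and Me1 at ZT0 and ZT4 with young above.

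Among conjugating enzymes, 2 of 8 sulfotransferases and 4 of 9 genes listed as UDP-glucuronosyltransferases fell and 0 rose. Of the 8 sulfotransferases 5 read above 0. Sult2a8, a liver sulfotransferase of bile acids, had young arrays between 8.409 and 10.55 (median 9.483) and old arrays between 7.514 and 9.961 (median 8.737). At ZT12 the 5 old arrays lay at 8.355 to 9.188 and the 6 young at 9.346 to 10.54, and at ZT20 the ages were also apart, while at ZT8 they overlapped (difference 0.0373). It fell by 0.68 (SE 0.155; adjusted p = 0.0056). Sult5a1 fell by 0.49 (SE 0.0852; adjusted p = 0.000294) at 6 of 6 times. The other 6 sulfotransferases tested were not called. All 9 genes tested that were listed as UDP-glucuronosyltransferases pointed downward and 4 fell. They were Ugt3a1, of the related UGT3 family of UDP-glycosyltransferases (-0.25, SE 0.0682), Ugt2b1 (-0.16, SE 0.0509), Ugt2b5 (-0.11, SE 0.0269) and Ugt2b34 (-0.11, SE 0.0342). After quantile normalization 1 was called, and 2 were without any 1 of 13 arrays, 8 of them old. The Ugt2b genes are near-identical neighbours whose probe sets can cross-read.

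Among 23 cytochrome P450 and related genes 3 fell and 0 rose: Cyp3a11, the main drug-oxidising P450 of mouse liver (-0.37, SE 0.0707; adjusted p = 0.00109), Cyp1a2 (-0.44, SE 0.125) and Cyp2f2 (-0.18, SE 0.0543). Bile acid genes gave 2 of 19 lower, the phospholipid exporter Abcb4 (-0.20, SE 0.0599) and the conjugating enzyme Baat (-0.15, SE 0.0499), with 0 called without replicate 3 of the old mice at ZT16 or ZT0. Cyp7a1, the rate-limiting enzyme of bile acid synthesis, read 0.17 (SE 0.229). Of 21 glutathione and NRF2 genes 3 rose and 0 fell. Gpx3, the glutathione peroxidase of plasma, ran from 6.541 to 7.987 in old arrays and from 6.146 to 7.104 in young arrays, without overlap at ZT4, ZT12, ZT16 and ZT20. It rose by 0.50 (SE 0.0879; adjusted p = 0.000294). The exporter Abcc4 rose by 0.31 (SE 0.0864) and the quinone reductase Nqo1 by 0.26 (SE 0.0783). Gpx6, a related peroxidase, fell by 0.48 (SE 0.122; adjusted p = 0.012).

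Genes known as male-biased in mouse liver pointed down. Of 13 tested, 3 fell, 0 rose and 11 read below 0, with a median of -0.43. Mup3, a major urinary protein, had young arrays between 10.63 and 12.4 (median 11.56) and old arrays between 9.786 and 12.06 (median 11.14), apart only at ZT0, and fell by 0.47 (SE 0.0973; adjusted p = 0.0023). Its probe set can read other Mup genes. Keg1, a glycine acyltransferase-like gene, fell by 0.48 (SE 0.132) and Nudt7, a peroxisomal coenzyme A hydrolase, by 0.38 (SE 0.104). Members with larger SEs did not pass, such as the steroid dehydrogenase Hsd3b5 (-0.69, SE 0.28), the elongase Elovl3 (-0.63, SE 0.317) and Cyp4a12a (-0.43, SE 0.323). By label 12 of 24 old and 14 of 32 young arrays were male, and since the labelled sexes did not separate, the part of the mice's actual sex in this pattern was not tested. Female-biased genes gave 0 calls of 10 (median 0.14), and the growth hormone and IGF axis 0 of 12, with Igf1 at -0.08 (SE 0.0611) and Ghr at -0.07 (SE 0.0431).

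Hsd17b6, a steroid dehydrogenase, fell by 0.48 (SE 0.116; adjusted p = 0.0079) and AY074887 by 0.49 (SE 0.111; adjusted p = 0.00591). Spc25, a kinetochore subunit used in mitosis, fell by 0.48 (SE 0.118; adjusted p = 0.00866), whereas the replication clamp Pcna rose by 0.12 (SE 0.0301), and the other 14 cell cycle genes tested were not called. Pcna read 0.0877 (adjusted p = 0.0515) without replicate 2 of the old mice at ZT4, and 6 cell cycle genes were called higher without replicate 1 at that time. Of 10 genes of NAD metabolism and the sirtuins, Sirt4 fell (-0.10, SE 0.0312), though not without replicate 3 of the old mice at ZT4. Pyruvate dehydrogenase Pdha1 (-0.19, SE 0.056) and malonyl-CoA decarboxylase Mlycd (-0.15, SE 0.0461) fell among 13 genes of acetyl-CoA metabolism (0 without replicate 3 of the old mice at ZT4 or ZT0), and the autophagy kinase Ulk1 (-0.19, SE 0.0537) among 16 of autophagy and lysosome. Of 17 complement genes, C5ar1 and the lectin pathway protease Masp1 (0.13, SE 0.0351) rose. No gene was called among cholesterol synthesis (14 tested), gluconeogenesis (8), glycolysis (12), the urea cycle and amino acid catabolism (15), one-carbon metabolism (13), ER stress (20), heat shock (8), p53 and senescence (12), iron and haem (15), coagulation (15) or extracellular matrix (19).

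**Figure D4:**
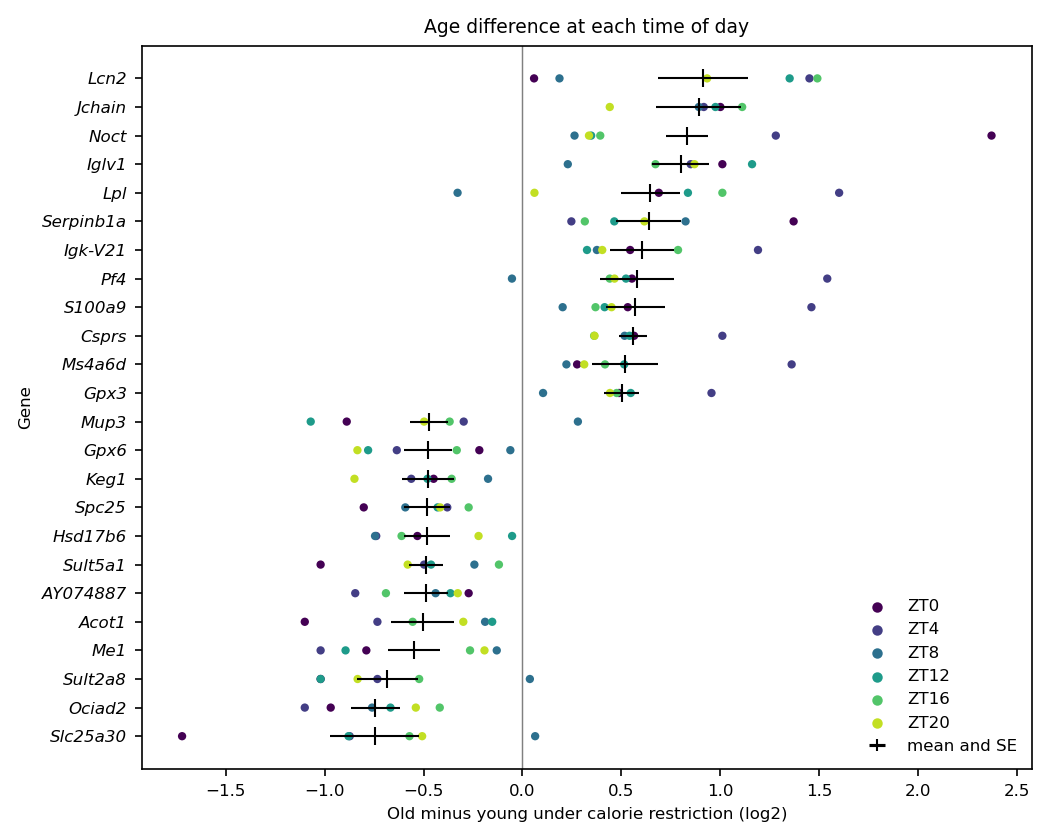
Old minus young difference under calorie restriction (log2) at each time of day for the 24 genes with large and steady differences; coloured points are the 6 times and black bars the mean with its SE. The rule that chose the genes asked for 1 sign at 5 or more times; for 19 of the 24 all points lie on 1 side of 0, and Noct at ZT0, at 2.37, is the farthest point.

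Taken at single times, with 3 to 6 arrays per age, the number of called genes was uneven. At ZT0 there were 297 (2.52%; 119 higher and 178 lower), at ZT4 113 (0.959%; 82 and 31), at ZT8 0 (0%), at ZT12 3 (0.0255%), at ZT16 0 (0%) and at ZT20 119 (1.01%; 33 and 86). Unadjusted p under 0.05 was reached by 2176, 1839, 766, 679, 616 and 1834 genes. These counts hung on single arrays: leaving out 1 array at a time gave 5 (without old replicate 3) to 826 (without young replicate 1) at ZT0, 4 (without old replicate 2) to 525 (without old replicate 1) at ZT4 and 6 (without young replicate 5) to 363 (without young replicate 4) at ZT20. They do not show that times of day differ, and the test of the difference between times called Noct alone.

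Some of the largest called differences at single times, chosen after their values were seen, follow. At ZT0 the largest was that of Noct (2.37). There the immediate early gene Fos was higher by 2.03 (SE 0.454) and Serpinb1a by 1.37 (SE 0.405), while the organic anion transporter Slc22a7 was lower (-1.29, SE 0.328), as were Cyp1a2 (-1.19, SE 0.308) and the fasting-induced lipase inhibitor Angptl4 (-1.05, SE 0.295). At ZT4 Lpl (1.6, SE 0.389), S100a9 (1.46, SE 0.391), C5ar1 (1.45, SE 0.374), the leucocyte integrin adaptor Fermt3 (1.39, SE 0.346) and Spic, a transcription factor of red pulp macrophages (1.34, SE 0.355), were higher, as was Pcolce2, a procollagen proteinase enhancer (1.34, SE 0.350). These ZT4 values include replicate 2 of the old mice, the array highest in myeloid markers, without which 4 genes were called at ZT4. At ZT12 Mup3 was lower (-1.07, SE 0.217). At ZT20 the inducible heat shock gene Hspa1b was lower (-2.23, SE 0.521), as was the imprinted non-coding RNA Meg3 (-1.16, SE 0.318), and Csad, of taurine synthesis, was higher (1.34, SE 0.275). Over the 6 times Fos also rose on average, by 0.75 (SE 0.184; adjusted p = 0.00943).

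On the normal diet the same contrast called 594 genes (5.04%). The calls held in common were 63 higher and 74 lower on both diets, with 1 opposite, which is 15% of those under restriction and 23.1% of those on the normal diet. Of the 911 genes called under restriction, 780 (85.6%) had the same sign on the normal diet, beside 64.3% of all genes, and 803 had a smaller value there. They were chosen by their values under restriction, so that this count does not compare the diets. All 24 genes with large and steady differences kept their sign on the normal diet, 12 of them were called there (8 higher and 4 lower), and 19 were larger under restriction. Jchain (0.91), Lpl (0.64) and Gpx3 (0.49) had close values on both diets. Iglv1 read 0.28, Mup3 -0.18, Sult5a1 -0.09, Gpx6 -0.07 and Hsd17b6 -0.06, while Acot1 (-0.85) and Ociad2 (-0.84) fell there too.

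Whether the age difference depended on diet was tested directly, and 2 of 11787 genes (0.017%) passed, with 1109 at an unadjusted p under 0.05. The synaptonemal complex gene Syce2 rose with age under restriction (0.12, SE 0.0323) and fell on the normal diet (-0.12), an interaction of 0.24 (SE 0.0475; adjusted p = 0.0198). The predicted gene Gm10037 fell under restriction (-0.16, SE 0.0331) and read 0.10 on the normal diet, an interaction of -0.26 (SE 0.0488; adjusted p = 0.0126). Next in order, and not past the threshold, were Smlr1, Zfp775 and the immune checkpoint receptor Havcr2 (each adjusted p = 0.0729). For the 24 genes with large and steady differences the adjusted p of the interaction was 0.288 or more. Sult5a1 had the smallest, with an interaction of -0.401 (SE 0.125; limma, unadjusted p = 0.00199). A call on 1 diet and not on the other thus does not show a difference between the diets. Nor was it shown that the age differences on the 2 diets are equal.

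**Figure D5:**
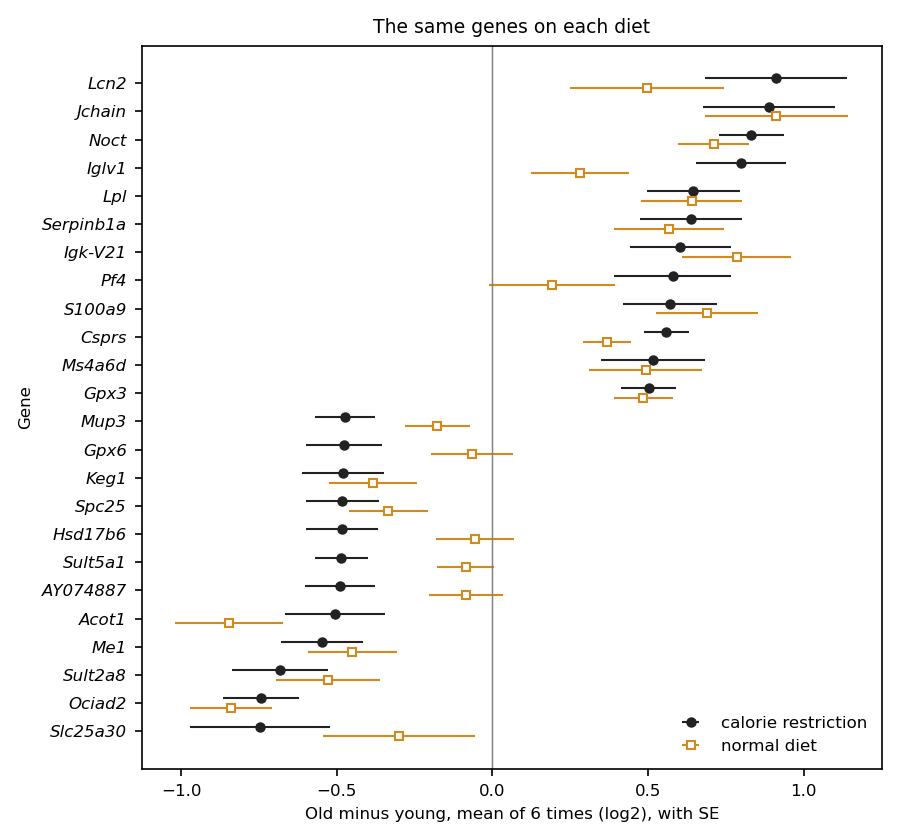
Old minus young difference (log2, mean of 6 times, with SE) under calorie restriction (black) and on the normal diet (orange) for the 24 genes with large and steady differences under restriction. All 24 have the same sign on both diets, and the bars of Jchain, Lpl and Gpx3 nearly coincide.

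By labelled sex, the age difference under restriction differed for 0 of 11787 genes (0%; limma, 689 at an unadjusted p under 0.05). The smallest adjusted p, 0.255, was shared by Rab11fip4, Mycs and Tgm5. Among the 24 genes with large and steady differences the smallest was 0.857. In fits of 1 labelled sex, 311 genes were called in females and 3 in males.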

How the data were processed

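The authors deposited log2 intensities for 21261 probe sets, made with RMA per the submitters' processing notes (version not given in the sources used here); raw intensities were not analysed here. Per the labels, RNA was amplified with 17 cycles and labelled with biotin. Names came from GEO's annotation of the array, updated to GRCm38.p6 symbols: 15869 had 1 symbol, 225 had several and 5167 had none, and 153 unmatched symbols were kept. The probe set with the highest mean stood for a gene (15716 genes). The 3929 lowest genes (25%) were left out, leaving 11787.

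With limma 3.58.1 in R 4.3.3, all arrays of both diets were fitted with a mean for each of 24 combinations of age, diet and time and a term for labelled sex (eBayes with trend, 78 residual degrees of freedom). The age effect is the mean of 6 within-time differences, with Benjamini-Hochberg adjustment over all genes and a threshold of 0.05. Named genes are up to 12 per direction with the largest called change and 1 sign at 5 or more times (no predicted or sex-chromosome genes), the 10 smallest p, clock genes, called list members and the smallest p of each interaction. The members and lists were chosen with earlier results of these data known. Alternatives were other scalings, filters, probe set rules, variance models, sexes and arrays left out; the scripts were tested on simulated data. The number of arrays limits the precision.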

Additional observations from a re-analysis of the deposited data

Results flagged for a closer look

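Single arrays stood far from the rest of their group in 6 of the 110 groups of 4 to 6 arrays that were examined for 10 genes by Dixon's ratio; chance gives about 1 in 20. Noct read 10.7 in young replicate 5 at ZT8, where the next array read 9.961, and 9.949 in old replicate 4 at ZT8, where the next read 10.3. Iglv1 read 4.933 in young replicate 3 at ZT0 (next 5.259). Lpl read 8.557 in old replicate 3 at ZT20 (next 7.565). Slc25a30 read 5.952 in young replicate 3 at ZT16 (next 3.748), and Acot1 read 7.98 in old replicate 1 at ZT8 (next 7.391). None of these arrays is at ZT0 or ZT4 for Noct, the times at which its ages were farthest apart.

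Effects that differed between groups by a test were that of Noct between times of day (limma, adjusted p = 0.000564) and those of Gm10037 (0.0126) and Syce2 (0.0198) between diets. Gm10037 was near the floor.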

How the results depend on the processing

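The count of 911 genes called for age under restriction became 311 in females alone and 3 in males alone, and leaving out arrays, singly or by replicate number, gave 43 to 1259; other settings gave 609 to 1155. Of the 24 genes with large and steady differences, 18 were called in all 56 fits that left out 1 restricted array, and 21 under every other setting in which they were measured, single sexes aside. The replicate block, tried because the labels number replicates, gave 609 calls, of which 590 were among the 911. Deviations of 24 same-numbered pairs had correlations of -0.382 to 0.239 (median 0.0326), with 7 over 0.1. Those of 104 differently numbered pairs ran from -0.425 to 0.4 (median 0.0133), with 28 over 0.1. Whether the numbers pair the samples was not tested. For age by time, quantile normalization called 2 genes, no filter 7, the stricter filter 4, males alone 0 and the cosine fit 0, and leaving out arrays 0 to 7. For age by diet, the stricter filter called 1, array weights 4, females alone 0 and males alone 513, and leaving out arrays 0 to 6. Age by sex stayed at 0 in every fit. Uqcc1 turned to 0.00346 in males alone (adjusted p = 0.995). The causes were not tested. Without the array of conflicting age label 825 genes were called, and 780 with it grouped as old; the fit without the normal-diet array of conflicting age label was chosen after seeing the data and called 888. The counts at single times, whose alternatives were chosen after seeing the data, ran at ZT0 from 1 (males alone) to 826, at ZT4 from 0 (males alone) to 525 and at ZT20 from 0 (without replicate 2 or 5) to 394. Signal over background could not be measured from these values.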
